A study of Homo sapiens with 4 samples.

Results

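The genes of the AP-1 family and the stress-responsive factors described here were FOS, JUN, JUNB, JUND, FOSL2, ATF3 and CEBPB. The data were 1 list of ELF5 ChIP-seq peaks in T47D, an established human breast epithelial line of the luminal A type. Members were the peaks whose summit lay in 1 of 7 windows on hg19, 1 window per gene and 660 kb in all, and 117 of the 115384 peaks of the list met this rule. The windows were set by position alone, each around its gene, but the members were chosen with earlier results of these data known. The cells grew in RPMI medium supplemented with insulin and 10% FBS, and the labels give no treatment. There were 3 ELF5 samples, labelled with the antibody sc-376737, beside 1 input sample, while the protocol text names antibodies used for other factors in other lines. Whether the 3 came from separate cultures, and whether the list rests on all 3 or only on 2 of them, is not stated, and as the peak list carries no columns for single samples, peaks have no replicate error and there is no second condition. The list also holds no expression values, so the identity of the line was not checked. All peak positions are on hg19 and counted from 1, and distances within a window run from its midpoint in the direction of increasing coordinates.

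ELF5 belongs to the ETS transcription factors and acts in the alveolar lineage of the mammary gland. ETS factors bind DNA with a GGAA core. AP-1 is a dimer of leucine-zipper proteins, in which FOS-family proteins pair with JUN-family proteins and JUN-family proteins can also pair among themselves. Several of its genes are immediate-early genes, switched on within minutes of growth factor or stress signals, and ETS and AP-1 sites often lie side by side in signal-responsive enhancers. ATF3 is a stress-induced relative of the same zipper class, and CEBPB is a zipper factor of mammary epithelial growth and of the acute-phase response.

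Promoter sequences were available from RefSeq for all 7 genes on GRCh38, a different build from that of the peaks, so no peak was placed on a promoter base. The sequences shown are the 250 bases before the listed start of the 5 genes of the FOS and JUN families, because the number of ETS cores in them ranged from 4 to none. They are given 5′ to 3′ on the strand of the gene, and capitals mark GGAA or its reverse complement TTCC.
JUNB (GRCh38, chr19:12791236-12791485, plus strand): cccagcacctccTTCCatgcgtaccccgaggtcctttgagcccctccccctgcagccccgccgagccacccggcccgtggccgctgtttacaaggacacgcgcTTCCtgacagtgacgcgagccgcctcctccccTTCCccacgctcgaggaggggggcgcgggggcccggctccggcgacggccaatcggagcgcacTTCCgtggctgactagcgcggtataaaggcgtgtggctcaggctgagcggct
FOSL2 (GRCh38, chr2:28392608-28392857, plus strand): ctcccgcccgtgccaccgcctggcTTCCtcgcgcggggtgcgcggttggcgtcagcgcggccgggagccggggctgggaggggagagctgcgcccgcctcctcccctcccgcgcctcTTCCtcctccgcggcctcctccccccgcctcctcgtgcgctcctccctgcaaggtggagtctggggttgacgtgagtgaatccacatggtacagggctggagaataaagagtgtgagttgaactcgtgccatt
FOS (GRCh38, chr14:75278578-75278827, plus strand): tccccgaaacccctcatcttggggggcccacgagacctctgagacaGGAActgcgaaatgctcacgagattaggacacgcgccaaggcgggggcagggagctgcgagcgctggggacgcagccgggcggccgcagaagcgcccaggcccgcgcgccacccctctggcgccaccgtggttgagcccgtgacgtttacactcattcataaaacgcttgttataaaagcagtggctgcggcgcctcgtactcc
JUN (GRCh38, chr1:58784048-58784297, minus strand): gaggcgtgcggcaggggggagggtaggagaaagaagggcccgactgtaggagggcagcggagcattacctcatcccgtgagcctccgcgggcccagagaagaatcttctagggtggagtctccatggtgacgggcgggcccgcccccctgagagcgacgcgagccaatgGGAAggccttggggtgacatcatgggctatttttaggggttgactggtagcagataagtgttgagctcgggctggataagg
JUND (GRCh38, chr19:18281623-18281872, minus strand): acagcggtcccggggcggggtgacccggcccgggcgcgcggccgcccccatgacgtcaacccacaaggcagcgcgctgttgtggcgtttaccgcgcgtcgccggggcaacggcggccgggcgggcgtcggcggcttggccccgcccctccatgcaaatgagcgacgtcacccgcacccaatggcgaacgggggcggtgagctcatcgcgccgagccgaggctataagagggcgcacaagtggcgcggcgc

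The JUNB promoter held 4 GGAA cores on either strand, at bases -238, -147, -115 and -52 from the start. FOSL2 had 2 cores, FOS and JUN had 1 each, and JUND had none. The base composition also differed, from 62% G and C in JUN to 74.8% in JUND among the promoters shown. It was 49.2% and 44.8% at the 2 listed starts of ATF3 and 75.6% and 77.6% at those of CEBPB. The median over all promoters was 58%. Over all 35116 promoters of the table, 92.7% held at least 1 GGAA core, with a mean of 2.94, against 6 of the 9 promoters listed for the 7 genes. ATF3 and CEBPB have 2 listed starts each, 1 with 3 cores and 1 with none. The longer form GGAAG occurred in 5 of the 9 promoters listed for the 7 genes and in 65.1% of all promoters. AGGAAG occurred in 2 of the 9 and in 28.7% of all. These forms overlap each other, as each holds the shorter one. The AP-1 site TGANTCA was in none of the 9 and in 6.57% of all promoters. The cyclic AMP response element TGACGTCA was in 1, that of JUND, and in 1.65% of all. The related sequence TGACATCA, in the JUN promoter shown and in 1 of the 2 listed for ATF3, matches neither pattern and was not counted. Of 28 other AP-1, ATF/CREB, C/EBP and early-response genes, 23 had a promoter in the table, of which 21 held GGAA and 8 AGGAAG. Counted in the same way, by gene, 6 of the 7 members held GGAA and 2 AGGAAG. The peaks of the other genes were not analysed here. These are matches of letters in a short window, and a motif that is missing there may lie elsewhere or be present in another form.

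ELF5 peaks were dense and often strong around these genes. The 7 windows held 177 peaks per Mb, against 38.0 per Mb on chromosomes 1 to 22 and X, a ratio of 4.67. Fold is the authors' enrichment of ChIP over the local background of a peak. Strong peaks are here the highest 10% of folds in the whole list, from a fold of 11.99 upwards. Of the 117 members 25 were strong, which is 21.4% (exact binomial 95% interval 14.3 to 29.9, covering counting error only). By construction 10.0% of the list was strong. The intervals here treat peaks as independent, but the peaks share 7 windows, and 8 of the 25 strong ones were at JUNB. Every window held at least 2 strong peaks, and the strong share ran from 12.5% at FOSL2, 13.3% at CEBPB and 14.3% at JUND to 34.8% at JUNB. In 6 of the 7 the interval of this share included that of the list, JUNB being the exception. On their own chromosomes the strong share was 13.1% for FOSL2 and 16.4% for JUND, above that of the window in both. JUNB lies on the same chromosome as JUND. The interval of the JUNB share, 16.38% to 57.3%, just included the share of that chromosome, 16.41%. It also included the 19.4% of the JUNB flanks described below, so JUNB was apart from the list but not from its surroundings. The median fold of members was 4.80 (interval of the median 3.66 to 6.46) against 3.66 in the list. Without JUNB, a choice made after seeing the data, it was 3.81 (3.50 to 5.71), an interval that included the list's median.

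**Figure D1:**
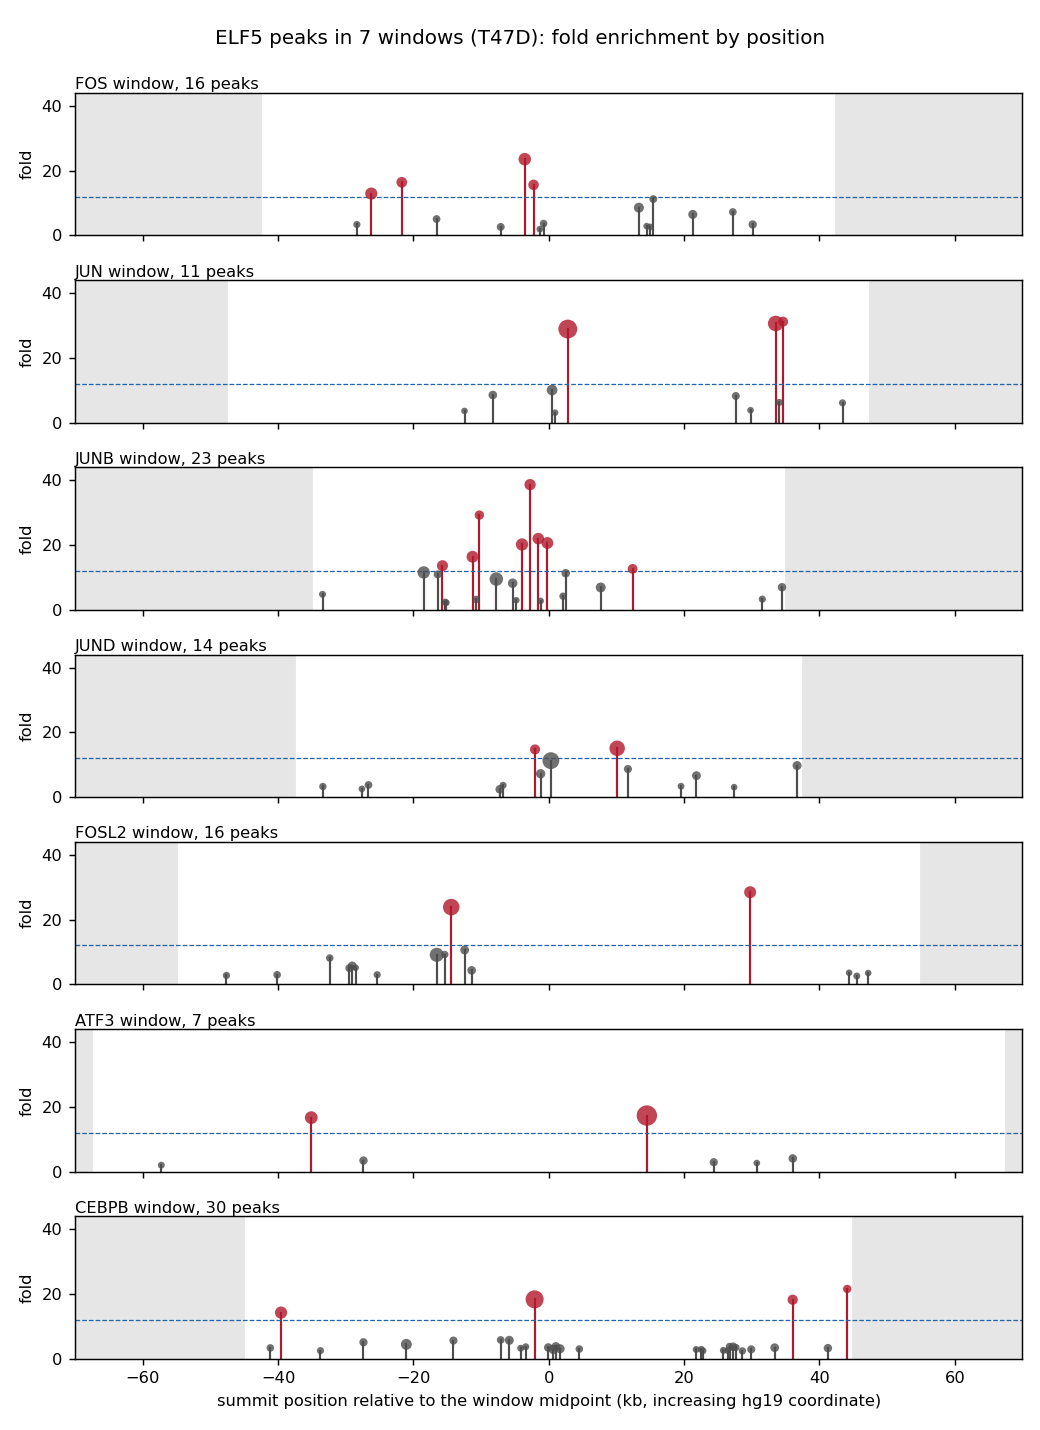
Each panel is 1 window. Lines and points mark a peak at its summit, in kb from the window midpoint on the x axis, with its fold on the y axis. Point area grows with peak width, red marks strong peaks, the dashed line is the fold of 11.99, and grey lies outside the window. JUNB has a tight group of strong peaks near its midpoint, ATF3 and CEBPB have a few tall peaks over low ones.

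The median width was 318 bp among members and 215 bp in the list. Of the 117, 106 had the authors' q under 0.05, a share close to the 87.5% of the list. Peaks of at least 2000 bp made up 0.448% of the list, and 3 of the members were of this kind, at JUN, ATF3 and CEBPB. The depth behind a member was a median of 24 fragments at the summit over a local background of 3.87 scaled fragments, against 16 and 3.105 in the list. Pileups and backgrounds were recovered from the deposited fold and p, and the intervals below hold the background fixed and cover counting error only.

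**Figure D2:**
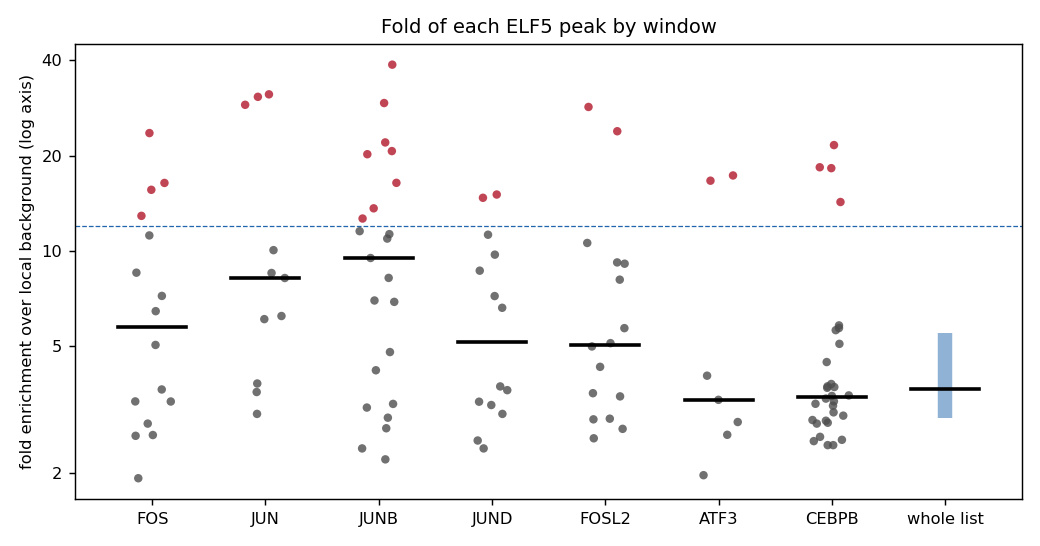
Each point is the fold of 1 peak on a log axis, by window, with strong peaks in red and the black bar at the median of the window. At the right the black bar is the median of the whole list, 3.66, and the blue bar its interquartile range, 2.98 to 5.50. The medians of JUNB and JUN are the highest, and those of ATF3 and CEBPB lie just under that of the list.

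FOS encodes the founding FOS-family partner of AP-1, an immediate-early gene with little transcript in resting cells. Its window, 75705 to 75790 kb on chromosome 14, contained 16 peaks. Among them 4 were strong, and the folds ran from 1.92 to 23.5 with a median of 5.76. The strongest covered 75743651 to 75744656, with its summit at -3.55 kb and a fold of 23.5 (95% interval 19.99 to 27.5). It was followed 1299 bp on by a peak at 75744973 to 75745626 with a fold of 15.6 (13.1 to 18.4). Both lay side by side just below the midpoint, and their intervals did not overlap. A further strong couple lay at -26.2 and -21.7 kb, with folds of 12.9 and 16.4. Nearest to the midpoint, at -0.767 kb, the peak had a fold of 3.66 (2.28 to 5.60). On the upper side, 7 peaks lay from 13.3 to 30.1 kb, none of them strong and the highest at 11.2. All strong FOS peaks were thus on the side of lower coordinates. In the RefSeq gene order on GRCh38, FOS is followed by JDP2 and BATF, which also encode zipper proteins of the AP-1 class, and preceded by NEK9 and TMED10.

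FOSL2 encodes FRA2, a FOS-family protein whose expression outlasts that of FOS. Its window, 28575 to 28685 kb on chromosome 2, held 16 peaks with a median fold of 5.06, and 2 of them were strong. They stood 44171 bp apart on either side of a stretch without a peak, which ran for 41156 bp between summits. The lower one, from 28614886 to 28616786, was 1901 bp wide with a fold of 23.9 (19.96 to 28.3). It was the tallest of a group of 5 summits between -16.6 and -11.4 kb, whose other folds ran from 4.31 to 10.6. The upper one, from 28659445 to 28660350, stood alone with a fold of 28.5 (23.7 to 33.9). The intervals of the 2 overlapped, so neither was shown to be the stronger. The central 10 kb of the window held no peak, and the nearest to the midpoint, at -11.4 kb, had a fold of 4.31. BABAM2 and RBKS precede the gene in the RefSeq order, and PLB1 and PPP1CB follow it.

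JUN encodes the JUN partner of AP-1, and its own promoter is a textbook AP-1 target. The window, 59200 to 59295 kb on chromosome 1, held 11 peaks, and the median fold of 8.22 was above the list's. Its 3 strong peaks had folds of 28.9 or more, and the other 8 had folds of 10.1 or less. The first strong peak lay at +2.81 kb, from 59248839 to 59251374, was 2536 bp wide and had a fold of 28.9 (23.4 to 35.3). The other 2 formed a couple 1094 bp apart near +34 kb, one between 59279667 and 59281334 at a fold of 30.6 (25.6 to 36.4), the other between 59281773 and 59282337 at 31.2 (26.2 to 36.8). All 3 intervals overlapped. The site near the midpoint and the one at the upper side were thus of like height at this depth, and the first 35049 bp of the window held no summit. A weaker peak at +0.487 kb had a fold of 10.1 (6.90 to 14.2).

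JUNB encodes a JUN-family protein that can also oppose JUN, and its window held the most strong peaks and the highest fold of the 7. It spans 12870 to 12940 kb on chromosome 19 and held 23 peaks, 8 of them strong, with a median fold of 9.50. The strongest member of all 7 windows lay here, from 12901972 to 12902747, with a fold of 38.7 (32.6 to 45.6). It ranked 511 in the list, and 0.443% of all peaks had a fold as high. The 4 strong peaks closest to the midpoint followed one another at distances of 1190, 1216 and 1347 bp, with folds of 20.2, 38.7, 21.99 and 20.7. The interval of the highest did not overlap those of its neighbours on either side, whose highest bounds were 25.03, 27.6 and 26.1. At -10.3 kb a peak of 477 bp had a fold of 29.3 (24.1 to 35.2), an interval that overlapped that of the highest, and lay 1011 bp from one with a fold of 16.4. The weakest strong peaks were at +12.4 kb, with a fold of 12.7, and -15.7 kb, with a fold of 13.6. Folds of 11.5 and 11.3 lay just under the threshold. The widest JUNB peak, of 1195 bp at -7.75 kb, had a fold of 9.50. Peaks covered 16.8% of the window, the highest share of the 7. In the RefSeq table, HOOK2 overlaps JUNB, PRDX2 and THSD8 follow, and BEST2 lies before HOOK2. Which of the peaks lie in these neighbours was not analysed here.

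JUND encodes the JUN-family protein that is present in most resting cells. Its window, 18355 to 18430 kb on chromosome 19, held 14 peaks with a median fold of 5.18, and 2 were strong. By the deposited fold its strongest peak was the lowest of the 7 windows' tops, whereas without the added pseudocount that of ATF3 was lower, 20.6 against 21.6. The folds were 15.1 (11.3 to 19.7) for the peak between 18402303 and 18403944 and 14.7 (11.001 to 19.3) for the peak between 18390234 and 18390817. Their intervals overlapped almost fully. The widest peak, of 1974 bp from 18391477 to 18393450, lay at +0.313 kb with a fold of 11.3 (7.98 to 15.4), just under the threshold. Near the centre 3 neighbouring peaks thus lay side by side, with folds of 14.7, 7.21 and 11.3. LSM4 and PGPEP1 follow JUND in the RefSeq order, and IQCN and CIST1 precede it.

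ATF3 encodes a stress-induced zipper protein that can repress its own gene. Its window, 212700 to 212835 kb on chromosome 1, is the longest and held 7 peaks, the fewest. The 2 strong peaks were 49596 bp apart, and no other peak had a fold above 4.04. One was the widest member of all, 2989 bp between 212780109 and 212783097, and its fold was 17.3 (14.3 to 20.8). At +14.5 kb it was also the one nearest the midpoint. The other, from 212731504 to 212732556, had a fold of 16.7 (13.2 to 20.7). The 2 were of the same height within counting error but differed in width, 2989 against 1053 bp. Peaks covered 3.97% of the window, the lowest share of the 7. NENF and PACC1 come before ATF3 in the RefSeq order, and GARIN4 and BATF3, another zipper gene of the AP-1 class, come after it.

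CEBPB encodes the C/EBP-beta protein, which binds DNA as a dimer like AP-1 but at its own sites. Its window, 48765 to 48855 kb on chromosome 20, held 30 peaks, the most of the 7, but the median fold was 3.46. The 4 strong peaks stood apart from the rest in height, since no fold lay between 5.82 and 14.3, a range that held 15.5% of the list. The strongest, from 48853966 to 48854308, had a fold of 21.6 (18.1 to 25.5) at +44.1 kb, close to the upper edge of the window. A peak of 2305 bp between 48806740 and 48809044 reached a fold of 18.4 (15.3 to 21.9) at -2.10 kb, and 7 low peaks lay within 5 kb of the midpoint beside it. The one nearest the midpoint, at -0.075 kb, had a fold of 3.49. The remaining strong peaks were at +36.05 kb, with a fold of 18.2, and at -39.6 kb, with a fold of 14.3. PEDS1 and the read-through gene PEDS1-UBE2V1 precede the gene, and PTPN1 and RIPOR3 follow it in the RefSeq order.

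**Figure D3:**
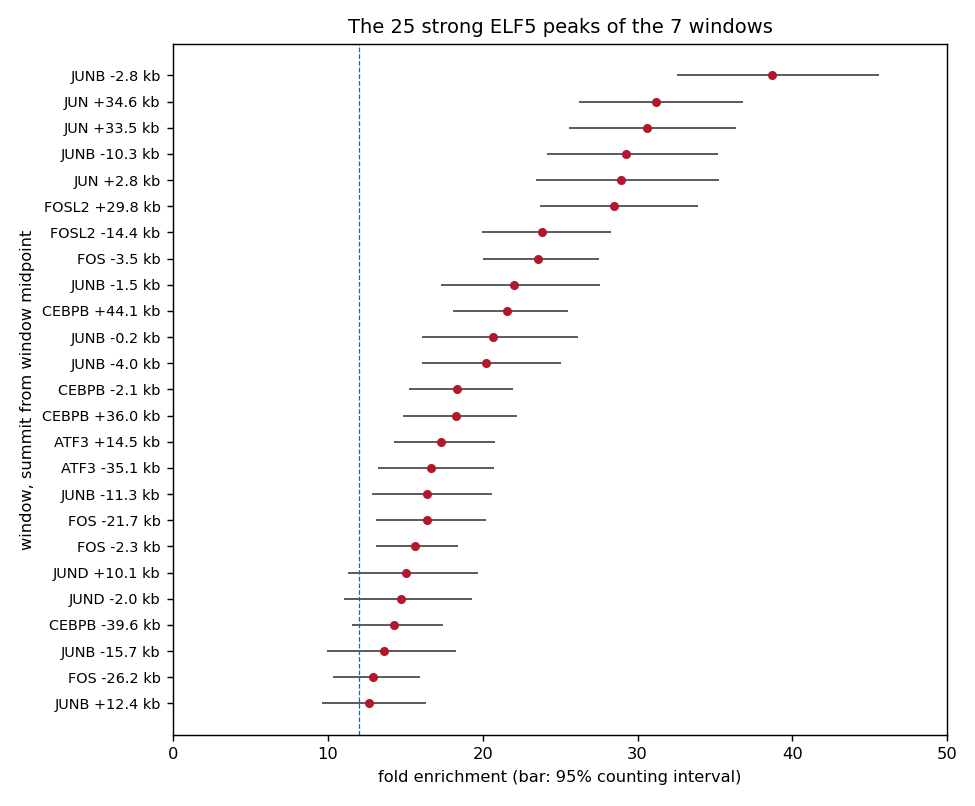
The 25 strong peaks are ordered by fold, each named by its window and the distance of its summit from the window midpoint. Points are the deposited fold and bars the 95% counting interval with the background fixed. The JUNB peak at 38.7 leads, and most neighbours in the order overlap.

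The order of the windows depended on whether fold or fragments were compared. By the fold of the strongest peak the order was JUNB, JUN, FOSL2, FOS, CEBPB, ATF3 and JUND. Of the 21 pairs of windows, 11 had overlapping intervals of the fold, among them all neighbours in this order. JUNB was apart from FOS, CEBPB, ATF3 and JUND. In fragments at the summit of these same peaks, that of FOS came first with 154 (exact Poisson 95% interval 131 to 180), followed by JUNB with 139 (117 to 164), JUN with 136 (114 to 161), CEBPB with 134 (112 to 159), FOSL2 with 124 (103 to 148) and ATF3 with 113 (93.1 to 136). All 15 pairs among these 6 overlapped. At FOSL2 the peak at -14.4 kb had more fragments, 130, than the one of highest fold. The JUND peak had 51 fragments (38.0 to 67.1) and was apart from the others on this scale. The background under the strongest peaks was 2.30 scaled fragments at JUNB and 2.15 at JUND, 3 at JUN and FOSL2, and between 4.70 and 5 at FOS, CEBPB and ATF3. Over all peaks of a window the median background was lowest at JUN, 2, and highest at FOS, 5.50. Copy number was not measured, and the part of the local background in the order by fold was not tested.

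**Figure D4:**
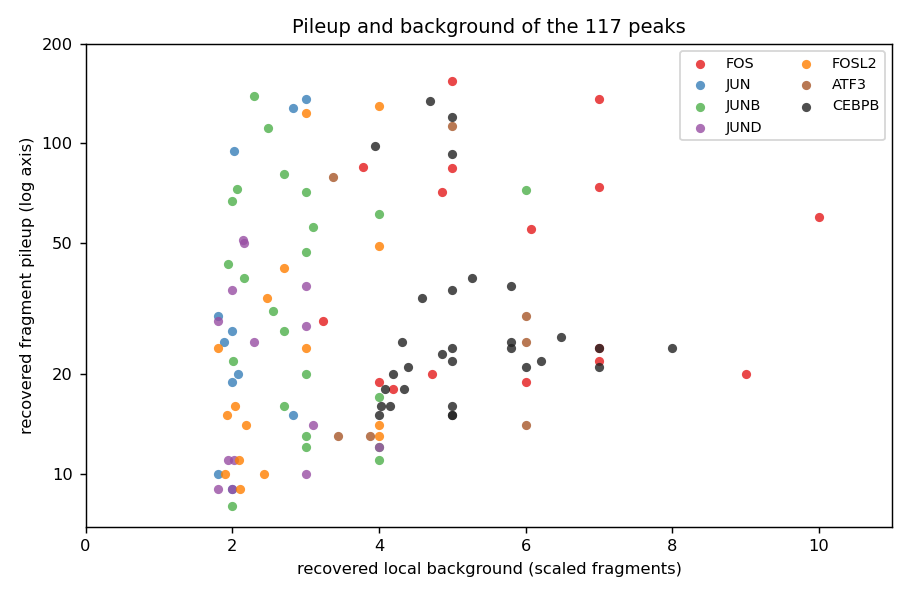
Each point is 1 of the 117 peaks, with the recovered background in scaled fragments on the x axis and the recovered fragment pileup at the summit on a log y axis, coloured by window. Peaks of JUN, JUNB and JUND lie mostly at backgrounds near 2 to 3, those of CEBPB, ATF3 and FOS mostly at 4 or more.

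Most windows were denser in ELF5 peaks than their surroundings, while those of JUND and ATF3 were not. Over 500 kb on each side, the flanks of the 7 windows held 744 peaks in 7 Mb, or 106 per Mb. The flanks differed widely, from 21 per Mb at JUN and 26 at FOSL2, both under the 38.0 of the list, to 208 at JUND and 209 at CEBPB. The density in the window was 5.59 times that of the flanks at FOSL2, 5.51 at JUN, 2.65 at JUNB, 1.94 at FOS and 1.59 at CEBPB. It was 0.897 at JUND and 0.879 at ATF3. Strong peaks made up 12.6% of the flanking peaks against 21.4% in the windows, and the strong share was higher in the window than in its flanks at 6 genes, the exception being FOSL2 with 12.5% against 19.2%. With 2 to 8 strong peaks per window these shares have wide intervals, for FOSL2 from 1.55% to 38.3%. Every window had at least 1 flanking peak stronger than its own top, from 1 at JUNB and FOSL2 to 20 at JUND.

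**Figure D5:**
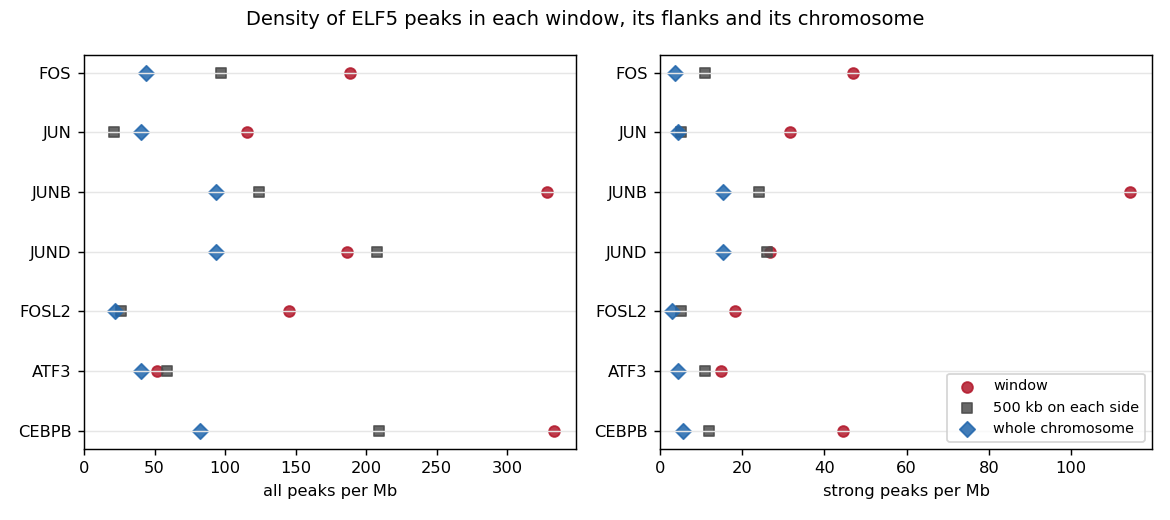
Peaks per Mb on the x axis for each window (circles), the 500 kb on each side of it (squares) and its whole chromosome (diamonds), for all peaks at the left and strong peaks at the right. For all peaks the circle lies right of the square at 5 genes, and at JUND and ATF3 left of it.

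Against the genome cut into consecutive stretches of the same length, assembly gaps included, the windows differed widely in rank. As many peaks as at CEBPB were found in 1.21% of 33727 stretches of 90 kb, and as many as at JUNB in 1.46% of 43363 stretches of 70 kb. The share was 4.67% for FOS, 4.89% for JUND, 6.93% for FOSL2, 9.64% for JUN and 21.7% for ATF3. By strong peaks JUNB was the rarest, since 0.0208% of stretches held 8 or more. The 4 strong peaks of FOS were matched in 0.972% of stretches and the 4 of CEBPB in 1.12%, and the 2 of ATF3 in 11.9%. Among stretches with at least 1 peak, 2.61% held as many peaks as JUNB and 31.2% as many as ATF3.

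Some strong peaks at FOS, JUN and JUNB lay close together, in couples or, at JUNB, also in a longer run. Of 18 distances between consecutive strong summits within a window, 6 were from 1011 to 1347 bp, and the next was 4441 bp. These 6 lay in the windows of FOS, JUN and JUNB, 4 of them at JUNB. There the distances of 1190, 1216 and 1347 bp joined 4 strong peaks in 1 run. In the whole list, 340 of 11519 distances between consecutive strong summits were within 1500 bp, a limit chosen after seeing the data. This is 2.95%, against 33.3% for the 18 distances in the windows. Distances within a window cannot exceed its length, while those of the list can, so these shares are not like for like and were not tested. The strong peaks of FOSL2, JUND, ATF3 and CEBPB were at least 8056 bp apart. In the central 10 kb of the windows, 9 of 26 peaks were strong, which is 34.6%, and outside it 16 of 91, 17.6%. JUNB alone had 4 strong among its 8 central peaks, and CEBPB 1 among 8. All 26 were at FOS, JUN, JUNB, JUND and CEBPB, and the strongest peak of the window was among them only at FOS and JUNB. Distances to gene starts were not computed, as no annotation of hg19 was used here.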

How the data were processed

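The build is hg19 in the header of the deposited peak list and in the submitters' processing notes, and the list's track name refers to IDR and 1-3, which may mean replicates 1 to 3 or 1 and 3. How reads were aligned, peaks called and filtered, the input used and samples pooled was not given in the sources used here. From the deposited list, fold (a ratio without a stated unit), −log10 p, −log10 q and score (the whole part of 10 times −log10 p in all 115384 rows) were used as given. Total reads are unknown.

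Pileups were recovered as whole fragments scaled by 0.910 with 1 added, whose Poisson tail matched the authors' −log10 p to 0.001 for 115366 peaks, all members among them. The other 18, with −log10 p of 312 or more, were beyond the numeric range, and 95 peaks, no member among them, had a second solution. The recovery was tested on simulated data.

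No test was made, because there are no values per replicate. Members were described by counts, medians and exact intervals beside the whole list. Described were all 7 genes and, per window, the peaks of highest fold and −log10 p, up to 5 strong peaks, the peak nearest the midpoint and the widest, with the 2 nearest named protein-coding genes on each side from RefSeq (GRCh38). The neighbours of JUN are not reported here. For JUNB all 8 strong peaks were described. Alternatives covered q, overlap, window size, joining of summits and the definition of strong. The members and lists were chosen with earlier results of these data known. The flanks, the central 10 kb, the spacing of strong peaks, the gaps in fold and the order by pileup were chosen after seeing the data. Peaks at other AP-1 genes, distances to gene starts and sequences at summits were planned but not run, as no hg19 sequence or annotation was used here. Tools were pandas 2.3.3, scipy 1.17.1 and numpy 2.4.6 in Python 3.11.15, figures were drawn in matplotlib 3.10.9, and hg19 lengths came from GenomeInfoDb 1.38.1 in R 4.3.3.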

Additional observations from a re-analysis of the deposited data

How the results depend on the processing

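Of 95 alternative values, 84 stayed within 1.5 times (counts) or within the counting interval (shares, medians, folds), and 11 moved. The values that moved came from the 5% and 20% cuts for strong, from folds without the pseudocount and from TGANTCA over 300 bases. With strong defined as the highest 5% of folds, 12 members were strong, 10.3%, and with the highest 20% there were 46, 39.3%. These shares move with the cut by definition, since the list itself then holds 5% and 20%. By −log10 p, by q under 0.05, by overlap, after joining summits within 400 bp and with windows 10 kb narrower or wider, the strong share ran from 19.6% to 23.6%. Without JUNB, an alternative chosen after seeing the data, 17 of 94 members were strong, 18.1% (10.9 to 27.4). The median fold was then 3.81 (3.50 to 5.71), an interval that included the list's median of 3.66. Without the pseudocount the fold of the strongest peak was 55.1 at JUNB, 41.2 at JUN, 37.6 at FOSL2, 28.1 at FOS, 25.95 at CEBPB, 21.6 at JUND and 20.6 at ATF3, so JUND and ATF3 changed places. Over all 300 bases, 8 of the 9 member promoters held GGAA and 7 held GGAAG, against 6 and 5 over 250 bases. TGANTCA was then in 1, that of FOSL2. The shares given for all promoters are for 250 bases. Ranking by −log10 p gave the same strongest peak in all 7 windows, and ranking by fragments, chosen after seeing the data, in all but FOSL2, where the peak with a fold of 23.9 came first. Leaving out replicates was not possible. No paired analysis was possible because values of single replicates are not in the files used. Few fragments at weak peaks widen their intervals.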
